A study of Mus musculus with 6 samples.

Results

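Neuroligins and leucine-rich repeat transmembrane proteins (LRRTMs) are adhesion molecules of the postsynaptic membrane, and neurexins are their shared partners on the presynaptic membrane. The 9 genes described here were Lrrtm1, Lrrtm2, Lrrtm3, Lrrtm4, Nlgn1, Nlgn2 and Nlgn3 on the postsynaptic side, and Nrxn2 and Nrxn3 on the presynaptic side. Every probe set whose only gene symbol in the platform annotation was one of these was taken, which gave 26 of the 45037 probe sets tested, or 9 of 18193 named genes. The genes were selected on their measured difference between D6/Zbtb20S and wildtype tissue, so the differences and adjusted p-values of all 9 are a description of these arrays and not a test.

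In D6/Zbtb20S tissue all 6 probe sets of Lrrtm1 and Lrrtm2 were higher, and all 6 probe sets of Lrrtm3 and Lrrtm4 were lower, than in wildtype tissue. Nlgn1 was 2.93-fold higher on 1 of its 2 probe sets. None of the other 13 neuroligin and neurexin probe sets passed the threshold, an adjusted p under 0.05 from limma with Benjamini-Hochberg adjustment over all probe sets. The changes that passed lay between 5.57-fold lower (Lrrtm4) and 3.14-fold higher (Lrrtm1). In all, 13 of the 26 probe sets passed, 7 higher and 6 lower, and over the whole array 5.52% of probe sets passed, 3.4% higher and 2.11% lower. On 17 of the 26 no D6/Zbtb20S array overlapped a wildtype array, which held for 23.7% of all probe sets.

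Contact between a presynaptic neurexin and a postsynaptic neuroligin or LRRTM can by itself start the assembly of a synapse in cultured cells. Nlgn1 is found mainly at excitatory synapses, Nlgn2 at inhibitory ones and Nlgn3 at either kind, while LRRTMs are best known from excitatory synapses of the hippocampus and cortex. Neurexin genes are transcribed from several promoters and heavily spliced, and splicing within the extracellular part decides which partners a neurexin binds.

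D6/Zbtb20S transgenic mice were compared with wildtype littermates on postnatal day 1, all on a C57BL/6 background. The tissue of either genotype was the subiculum with the retrosplenial cortex, which the labels call CA1-transformed in the transgenic mice (CA1 is a field of the hippocampus). Each genotype had 3 arrays with 1 RNA pool of 7 animals on each. Whether pools of 1 genotype shared litters is not given in the sources used here, and p-values therefore reflect only how these pools varied. Zbtb20 is a zinc finger repressor of transcription expressed by hippocampal pyramidal neurons as they develop. As background, D6 is known as an enhancer of Dach1 that is active in developing cortex and hippocampus; the labels give neither the cells that carry the transgene's product nor the number of founder lines.

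Values are log2 signals of probe sets, each a group of short probes that reads 1 stretch of transcript, and the array medians lay between 3.83 and 3.97. Of 9 Zbtb20 probe sets 1 was higher in D6/Zbtb20S tissue and 0 lower. That set, 1422064_a_at, read 8.88, 9.10 and 8.94 on D6/Zbtb20S replicates 1, 2 and 3, against 6.44, 5.84 and 7.64 on wildtype replicates 1, 2 and 3, so wildtype replicate 3 lay nearest to the transgenic arrays (5.04-fold between the means, adjusted p = 0.00904). Wildtype replicate 3 was also the highest wildtype array on 16 of the 26 probe sets, against 38.1% of all probe sets. The actin control's 3' minus 5' log2 signal, a sign of RNA quality, was 0.80, 0.91 and 0.83 on the D6/Zbtb20S arrays and 0.53, 0.88 and 1.31 on the wildtype ones. For the Gapdh control it was -0.0018, -0.012 and -0.023 on the D6/Zbtb20S arrays and -0.33, -0.034 and 0.30 on the wildtype ones. Both controls thus rose from wildtype replicate 1 to 3. The part of RNA quality in the values of the 9 genes was not tested. All 6 listed markers of subiculum and retrosplenial cortex, among them Nts, Tshz2 and Nr4a2, were above the array median in wildtype tissue. All 6 passed as lower in D6/Zbtb20S tissue, with a median log2 difference of -2.06, against 3.64% of all genes. The list was chosen with earlier results of these data known, so this describes the arrays and is not a test.

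The sequences around the starts of Lrrtm1, Nlgn1, Lrrtm3 and Lrrtm4 are shown because these 4 genes had the largest measured differences and moved in opposite directions. Each window runs from 250 bases before to 50 bases after the most upstream start in RefSeq (GRCm38.p6), 5′ to 3′, with E-boxes, the letters CANNTG, in capitals. Lrrtm4 and Nlgn1 have 2 starts each in that table, and the arrays do not tell which was used.
Lrrtm1 (higher in D6/Zbtb20S tissue, chr6:77242227-77242526, plus strand): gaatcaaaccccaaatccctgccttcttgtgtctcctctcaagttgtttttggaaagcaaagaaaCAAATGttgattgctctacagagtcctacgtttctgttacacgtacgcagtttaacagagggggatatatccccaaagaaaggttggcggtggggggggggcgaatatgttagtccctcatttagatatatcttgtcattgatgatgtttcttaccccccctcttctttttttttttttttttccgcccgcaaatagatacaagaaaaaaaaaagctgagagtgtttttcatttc
Nlgn1 (higher in D6/Zbtb20S tissue, chr3:26331860-26332159, minus strand): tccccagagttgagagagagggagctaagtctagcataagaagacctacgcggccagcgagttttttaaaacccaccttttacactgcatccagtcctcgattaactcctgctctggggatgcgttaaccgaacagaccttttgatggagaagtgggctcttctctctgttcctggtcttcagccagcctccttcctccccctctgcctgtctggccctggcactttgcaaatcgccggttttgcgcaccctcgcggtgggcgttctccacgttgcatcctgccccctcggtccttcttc
Lrrtm3 (lower in D6/Zbtb20S tissue, chr10:64090206-64090505, minus strand): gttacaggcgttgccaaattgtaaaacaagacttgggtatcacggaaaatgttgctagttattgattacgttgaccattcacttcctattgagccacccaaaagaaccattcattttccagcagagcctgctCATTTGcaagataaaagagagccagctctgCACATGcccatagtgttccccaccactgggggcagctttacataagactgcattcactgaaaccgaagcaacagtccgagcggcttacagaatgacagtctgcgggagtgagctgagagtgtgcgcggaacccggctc
Lrrtm4 (lower in D6/Zbtb20S tissue, chr6:80018627-80018926, plus strand): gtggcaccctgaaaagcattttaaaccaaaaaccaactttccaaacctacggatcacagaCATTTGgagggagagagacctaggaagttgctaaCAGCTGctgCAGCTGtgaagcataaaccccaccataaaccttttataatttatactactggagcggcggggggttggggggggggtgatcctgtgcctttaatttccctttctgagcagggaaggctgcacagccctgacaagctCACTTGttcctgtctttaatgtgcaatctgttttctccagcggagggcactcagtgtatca

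The windows of the 2 genes that were higher held 1 E-box (Lrrtm1) and 0 (Nlgn1), and those of the 2 that were lower held 2 (Lrrtm3) and 4 (Lrrtm4). E-boxes are the letters that basic helix-loop-helix factors bind, and 72.3% of the 32851 windows of this length in the table held at least 1. The median over all windows was 1 E-box. Of the genes with no probe set past the threshold, Nlgn2 held 1 E-box, and the windows of the 3 Nrxn3 starts held 0, 1 and 5. A link between E-boxes and the direction of change was not tested. The GC box, spelled GGGCGG, was found in the Lrrtm1 window and not in the other 3, and 35.7% of all windows held it. TATAAA was found 2 times in the Lrrtm4 window and in none of the other 3 (13.6% of all windows), and CCAAT in none of the 4 (37.4% of all windows). These counts depend on the start: the window of the second Lrrtm4 start held 2 E-boxes and 0 TATAAA. That of the second Nlgn1 start held 0 E-boxes and 1 CCAAT. Motifs were searched on both strands, and CCAAT and the GC box can each share end letters with an E-box. The GC content was 40.7% for Lrrtm1, 55.7% for Nlgn1 and 48.7% for both Lrrtm3 and Lrrtm4, against a median of 52.7% over all windows. In the same gene table Lrrtm1 lies within Ctnna2, Lrrtm2 within Ctnna1 and Lrrtm3 within Ctnna3, the genes of the alpha-catenins, while Lrrtm4 lies in no other protein-coding gene.

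Lrrtm1, a postsynaptic neurexin ligand of excitatory synapses, was higher in D6/Zbtb20S tissue on all 3 of its probe sets. On 1452624_at it read 7.10, 7.06 and 7.14 in D6/Zbtb20S tissue, against 5.25, 5.49 and 5.60 in wildtype tissue. That was a log2 difference of 1.65 ± 0.10 (SE), or 3.14-fold, with a limma adjusted p of 0.000107. The transgenic arrays of this set were close together (7.10 ± 0.040, SD, n = 3) and the wildtype ones more spread (5.45 ± 0.18, SD, n = 3), with a wide gap between the genotypes. On 1455883_a_at it read 9.05, 9.06 and 8.83 in D6/Zbtb20S tissue, against 7.40, 7.70 and 7.87 in wildtype tissue (1.32 ± 0.13, 2.50-fold, adjusted p = 0.000857). On 1437746_at it read 5.69, 5.65 and 5.33 in D6/Zbtb20S tissue, against 4.95, 4.56 and 4.78 in wildtype tissue (0.79 ± 0.13, 1.73-fold, adjusted p = 0.0108). The genotypes did not overlap on any of the 3 sets. The call of 1437746_at was lost in 3 of 6 fits with an array removed, those without D6/Zbtb20S replicate 1, D6/Zbtb20S replicate 2 or wildtype replicate 2, with an adjusted p up to 0.0573.

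Lrrtm2, whose protein acts with that of Lrrtm1 to hold AMPA receptors at CA1 synapses, was higher in D6/Zbtb20S tissue by smaller factors. On 1437787_at it read 5.45, 5.31 and 5.21 in D6/Zbtb20S tissue, against 4.45, 4.84 and 4.67 in wildtype tissue (0.67 ± 0.12, 1.59-fold, adjusted p = 0.0123). On 1455489_at it read 6.49, 6.34 and 6.27 in D6/Zbtb20S tissue, against 5.53, 5.79 and 6.05 in wildtype tissue (0.57 ± 0.13, 1.49-fold, adjusted p = 0.0453). All 3 probe sets kept the genotypes apart, and wildtype replicate 3 came closest to the transgenic arrays on 1455489_at. On 1456637_at the values were 3.08, 2.90 and 3.07 in D6/Zbtb20S tissue and 2.39, 2.51 and 2.40 in wildtype tissue (0.58 ± 0.086, 1.49-fold, adjusted p = 0.0064). This set lay under the array median in either genotype, where the summary of probe signals compresses differences. With 1 array left out, the call of 1455489_at held in 1 of 6 fits, the one without wildtype replicate 3 (adjusted p up to 0.174 in the other fits), and that of 1437787_at was lost without D6/Zbtb20S replicate 1 or 2 (up to 0.0609).

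Lrrtm3 was lower in D6/Zbtb20S tissue on all 4 of its probe sets. Its protein binds neurexins as those of Lrrtm1 and Lrrtm2 do. On 1434759_at it read 3.15, 3.29 and 2.44 in D6/Zbtb20S tissue, against 4.45, 5.44 and 5.25 in wildtype tissue (-2.08 ± 0.29, 4.24-fold lower, adjusted p = 0.0044). On 1434760_at it read 2.48, 2.77 and 2.66 in D6/Zbtb20S tissue, against 3.94, 4.78 and 4.60 in wildtype tissue (-1.80 ± 0.20, 3.48-fold lower, adjusted p = 0.0016). Wildtype replicate 1 was the lowest wildtype array on these sets and still lay above every transgenic array. On 1434761_at it read 3.32, 3.34 and 3.41 in D6/Zbtb20S tissue, against 4.36, 4.53 and 4.86 in wildtype tissue (-1.22 ± 0.12, 2.34-fold lower, adjusted p = 0.00101). On 1440112_at it read 3.22, 3.47 and 3.37 in D6/Zbtb20S tissue, against 4.33, 4.54 and 4.75 in wildtype tissue (-1.19 ± 0.12, 2.28-fold lower, adjusted p = 0.00101). No Lrrtm3 value of a transgenic array reached the array medians. All 4 calls held in each of the 6 fits with 1 array left out (adjusted p up to 0.0252).

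Lrrtm4, whose protein binds heparan sulfate proteoglycans as well as neurexins and is known from synapses of dentate granule cells, was lower in D6/Zbtb20S tissue on both of its probe sets. On 1455937_at it read 2.30, 2.32 and 2.25 in D6/Zbtb20S tissue, against 4.74, 4.78 and 4.79 in wildtype tissue. The difference was -2.48 ± 0.073, or 5.57-fold lower, with a limma adjusted p of 5.2e-06. Within either genotype the arrays of this set lay close together, with an SD of 0.037 in D6/Zbtb20S tissue and 0.024 in wildtype tissue (n = 3 each). On 1437214_at it read 3.12, 2.92 and 2.56 in D6/Zbtb20S tissue, against 4.75, 5.35 and 5.20 in wildtype tissue (-2.23 ± 0.18, 4.70-fold lower, adjusted p = 0.00034). Since every transgenic value of Lrrtm3 and Lrrtm4 lay under the array medians, their folds may be too small. In this bulk tissue fewer cells of a type and less RNA per cell cannot be told apart, for these genes and for those below.

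**Figure D1:**
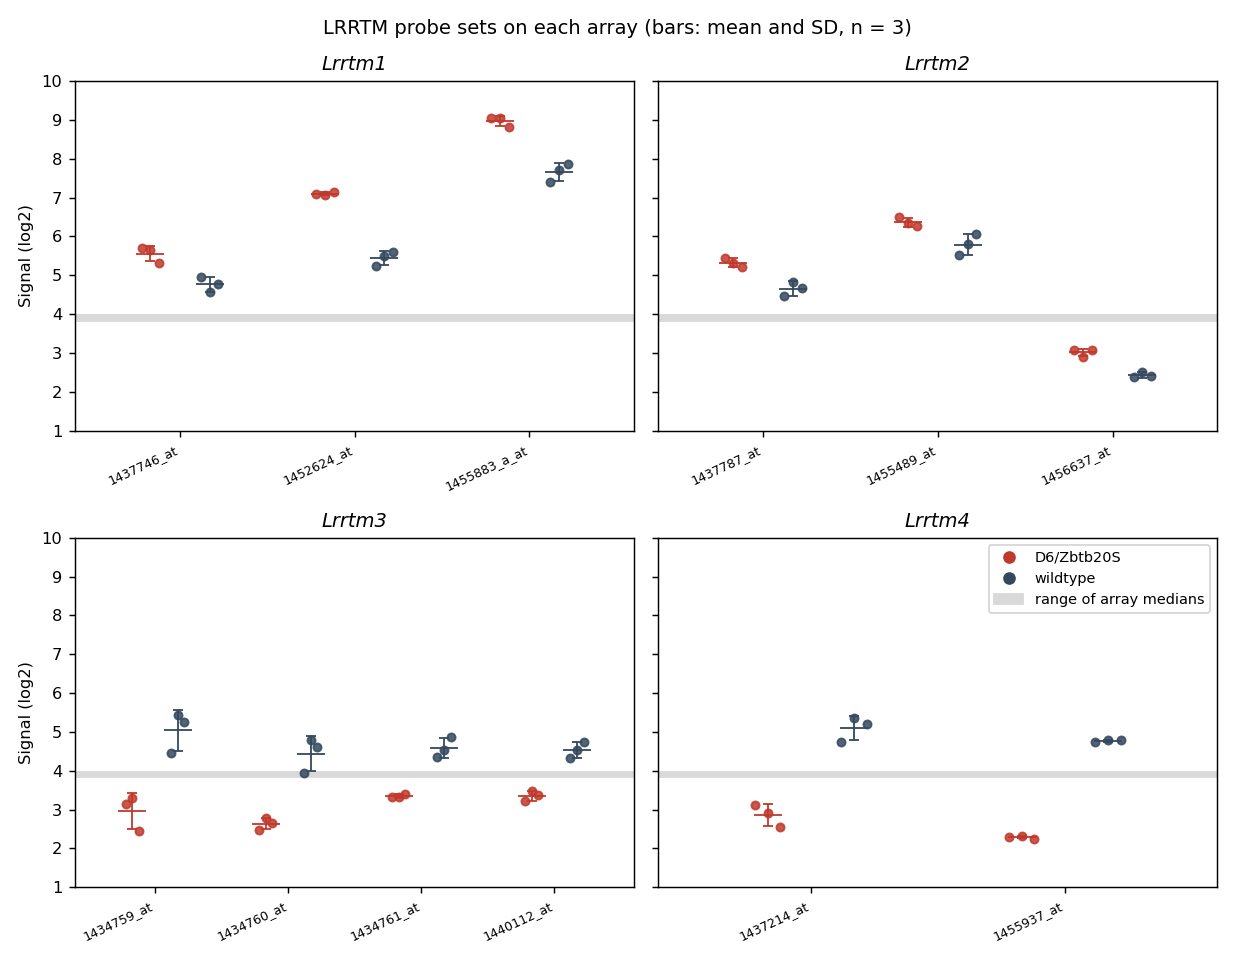
Log2 signal (vertical axis) of the 12 LRRTM probe sets (horizontal axis) on each array, with D6/Zbtb20S in red at the left and wildtype in dark blue at the right of each pair, bars for mean and SD (n = 3 each) and a grey band for the range of array medians. The red points lie above the blue ones for Lrrtm1 and Lrrtm2, and under both the blue ones and the band for Lrrtm3 and Lrrtm4.

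The LRRTM family thus had 12 of 12 probe sets past the threshold, 6 in each direction, with a median log2 difference of -0.31 and a median size of 1.27. Over all probe sets of the array the median difference was -0.02. Averaging the probe sets of each gene before the fit gave 1.26 for Lrrtm1, 0.61 for Lrrtm2, -1.57 for Lrrtm3 and -2.35 for Lrrtm4. Probe sets of 1 gene agreed in direction within all 4 LRRTM genes, although they share the arrays and are not replicates of each other. Their sizes differed within Lrrtm1, between 0.79 and 1.65, and within Lrrtm3, between -1.19 and -2.08.

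Among the neuroligins, Nlgn1 was the gene that changed. Its probe set 1437160_at read 6.80, 6.80 and 6.84 in D6/Zbtb20S tissue, against 4.86, 5.07 and 5.86 in wildtype tissue (1.55 ± 0.22, 2.93-fold, adjusted p = 0.00514). The transgenic arrays were nearly equal (SD 0.024), while the wildtype arrays spread widely (SD 0.53) with replicate 3 nearest to the transgenic level. Without wildtype replicate 3 the difference was 1.85, and all 6 fits with 1 array left out kept the call. The other Nlgn1 probe set, 1421648_at, read 2.09, 2.05 and 1.93 in D6/Zbtb20S tissue and 2.02, 2.07 and 2.06 in wildtype tissue, under the array median in either genotype. Its difference of -0.03 had a 95% interval from -0.21 to 0.15 (adjusted p = 0.899), so the 2 Nlgn1 sets did not give the same result. The sources used here do not say which transcripts each set reads.

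Nlgn2, the neuroligin of inhibitory synapses, did not pass on either probe set. On 1455143_at it read 8.27, 8.28 and 8.41 in D6/Zbtb20S tissue, against 8.48, 8.50 and 8.50 in wildtype tissue, so that the genotypes were apart by a small step (-0.18 ± 0.078, 95% interval -0.35 to 0.00073, adjusted p = 0.285). On 1460013_at it read 6.00, 6.08 and 6.06 in D6/Zbtb20S tissue and 6.04, 6.06 and 6.15 in wildtype tissue (-0.04, interval -0.21 to 0.14, adjusted p = 0.856). These values overlap between the genotypes. Beside it, of 9 listed genes of GABAergic neurons 1 passed, Gad1 (-0.60, lower), against 7.71% of all genes. The summed linear signal of the 9 was 817 to 860 in D6/Zbtb20S tissue against 986 to 1044 in wildtype tissue. Gad1, the brightest of the 9, weighs most in that sum, at 7.88 in D6/Zbtb20S tissue and 8.48 in wildtype tissue. The median log2 difference of the 9 was -0.14, and 2 were higher without passing. The part of GABAergic neurons in the Nlgn2 values was not tested.

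Nlgn3, found at excitatory and inhibitory synapses, overlapped between the genotypes on all 3 of its probe sets. On 1436135_at it read 7.38, 7.21 and 7.38 in D6/Zbtb20S tissue and 7.30, 7.19 and 7.27 in wildtype tissue (0.07, interval -0.12 to 0.26, adjusted p = 0.732). On 1456384_at it read 4.12, 3.81 and 4.16 in D6/Zbtb20S tissue and 3.86, 4.06 and 4.15 in wildtype tissue (0.0061, interval -0.27 to 0.28, adjusted p = 0.988). On 1453756_at it read 3.74, 3.75 and 4.30 in D6/Zbtb20S tissue and 3.83, 3.73 and 3.81 in wildtype tissue, where D6/Zbtb20S replicate 3 alone stood higher (0.14, interval -0.19 to 0.48, adjusted p = 0.684). Of the 7 neuroligin probe sets, 1 passed as higher and 0 as lower, and their median difference was 0.0061.

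On the presynaptic side no probe set of Nrxn2 or Nrxn3 passed the threshold. On 3 of the 7 the genotypes were apart, in differing directions, against 23.7% of all probe sets. Neurexins are the presynaptic receptors that the proteins of all the genes above bind. For Nrxn2, 1435907_at read 8.03, 8.14 and 8.31 in D6/Zbtb20S tissue, against 8.45, 8.42 and 8.38 in wildtype tissue (-0.26 ± 0.092, interval -0.47 to -0.05, adjusted p = 0.183). The other Nrxn2 set, 1455499_at, overlapped, with 4.35, 4.31 and 4.46 in D6/Zbtb20S tissue and 4.37, 4.18 and 4.38 in wildtype tissue (0.06, interval -0.14 to 0.27, adjusted p = 0.775). The 1435907_at difference passed with weights for the arrays (-0.29, adjusted p = 0.0463).

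Nrxn3 had 5 probe sets, and those whose genotypes were apart pointed in opposite directions. On 1433788_at it read 7.06, 6.97 and 7.07 in D6/Zbtb20S tissue, against 7.38, 7.24 and 7.48 in wildtype tissue (-0.33 ± 0.088, interval -0.53 to -0.13, adjusted p = 0.0723). This set is the brightest of the gene, and in the fit with 1 probe set per gene, which adjusts over 18193 genes, it passed as lower (adjusted p = 0.0474). On 1438193_at it read 5.0, 5.18 and 5.17 in D6/Zbtb20S tissue, against 4.06, 4.56 and 4.88 in wildtype tissue (0.61 ± 0.18, interval 0.19 to 1.03, adjusted p = 0.11). All transgenic values of the first set lay under the wildtype values, and all those of the second lay above them. On 1456137_at it read 6.00, 6.00 and 6.02 in D6/Zbtb20S tissue and 5.42, 5.58 and 6.20 in wildtype tissue, where wildtype replicate 3 lay above the transgenic arrays (0.27, interval -0.13 to 0.68, adjusted p = 0.49). Without wildtype replicate 3, 1438193_at (0.80, adjusted p = 0.0169) and 1456137_at (0.50, adjusted p = 0.0171) both passed as higher.

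The remaining Nrxn3 sets overlapped between the genotypes. On 1439629_at the values were 6.91, 7.18 and 7.38 in D6/Zbtb20S tissue and 7.19, 7.18 and 7.20 in wildtype tissue (-0.04, interval -0.31 to 0.23, adjusted p = 0.911). On 1432931_at they were 2.46, 2.59 and 3.07 in D6/Zbtb20S tissue and 2.83, 2.61 and 2.97 in wildtype tissue, under the array median in either genotype (-0.10, interval -0.47 to 0.28, adjusted p = 0.814). The mean of all sets of a gene was 0.08 for Nrxn3, whose sets pointed in opposite directions, and -0.10 for Nrxn2. Which promoter or splice form each set reads was not analysed here. Of 10 listed genes of synaptic vesicles and the active zone 2 passed, Snap25 (-1.03) and Stx1a (-0.39), both lower, against 7.71% of all genes. The summed linear signal of the 10 was 3001 to 3230 in D6/Zbtb20S tissue against 3654 to 4206 in wildtype tissue. Bright genes weigh most in such a sum, and Snap25 averaged 8.96 in D6/Zbtb20S tissue and 9.99 in wildtype tissue. The median log2 difference of the 10 was -0.15, and 1 was higher, Syn2 (0.39), without passing. The part of these shifts in the neurexin values was not tested.

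**Figure D2:**
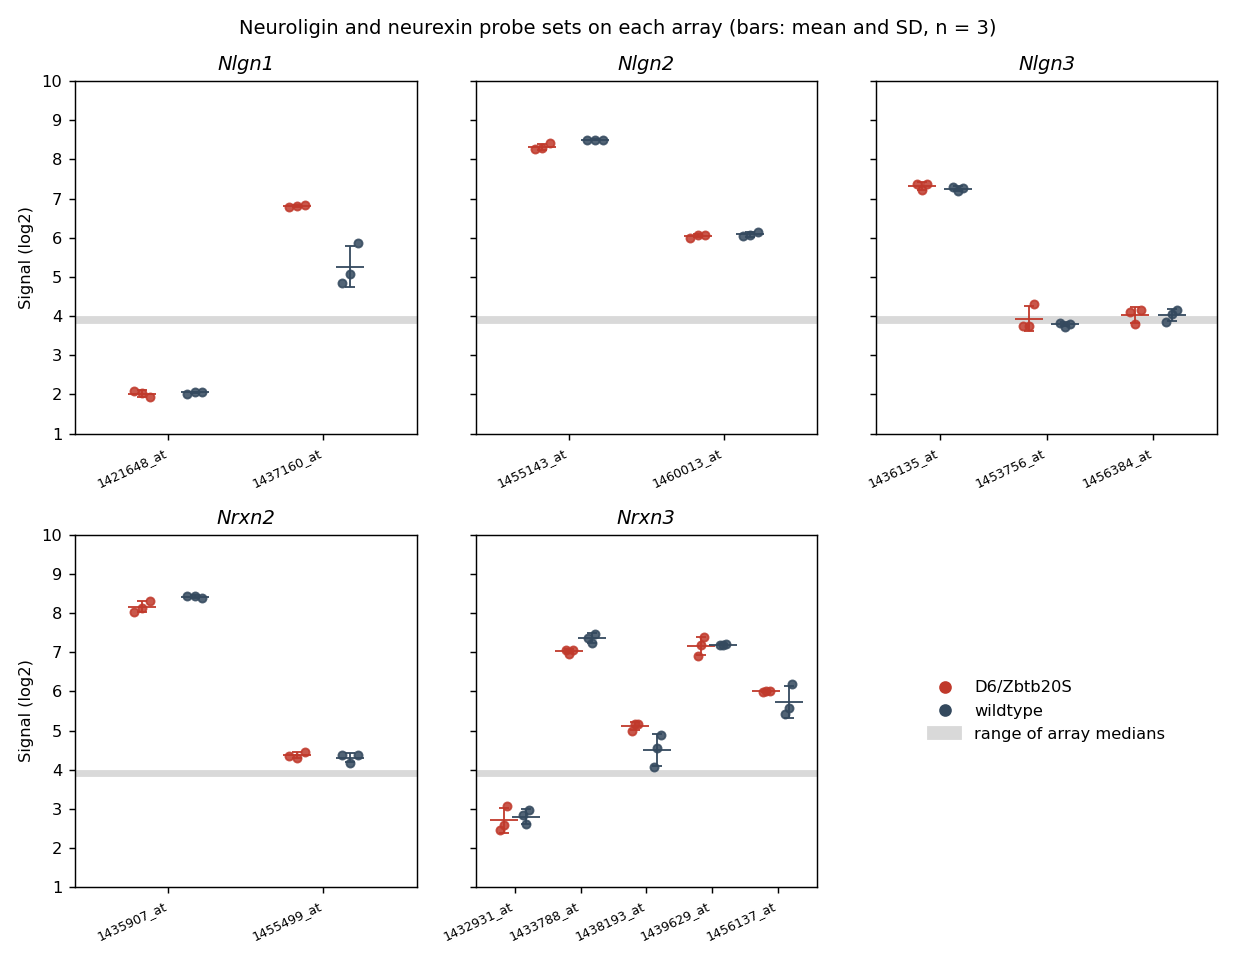
Log2 signal (vertical axis) of the 14 neuroligin and neurexin probe sets (horizontal axis) on each array, with D6/Zbtb20S in red at the left and wildtype in dark blue at the right of each pair, bars for mean and SD (n = 3 each) and a grey band for the range of array medians. The widest gap is that of Nlgn1 1437160_at, while most other pairs overlap or lie close to each other.

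**Figure D3:**
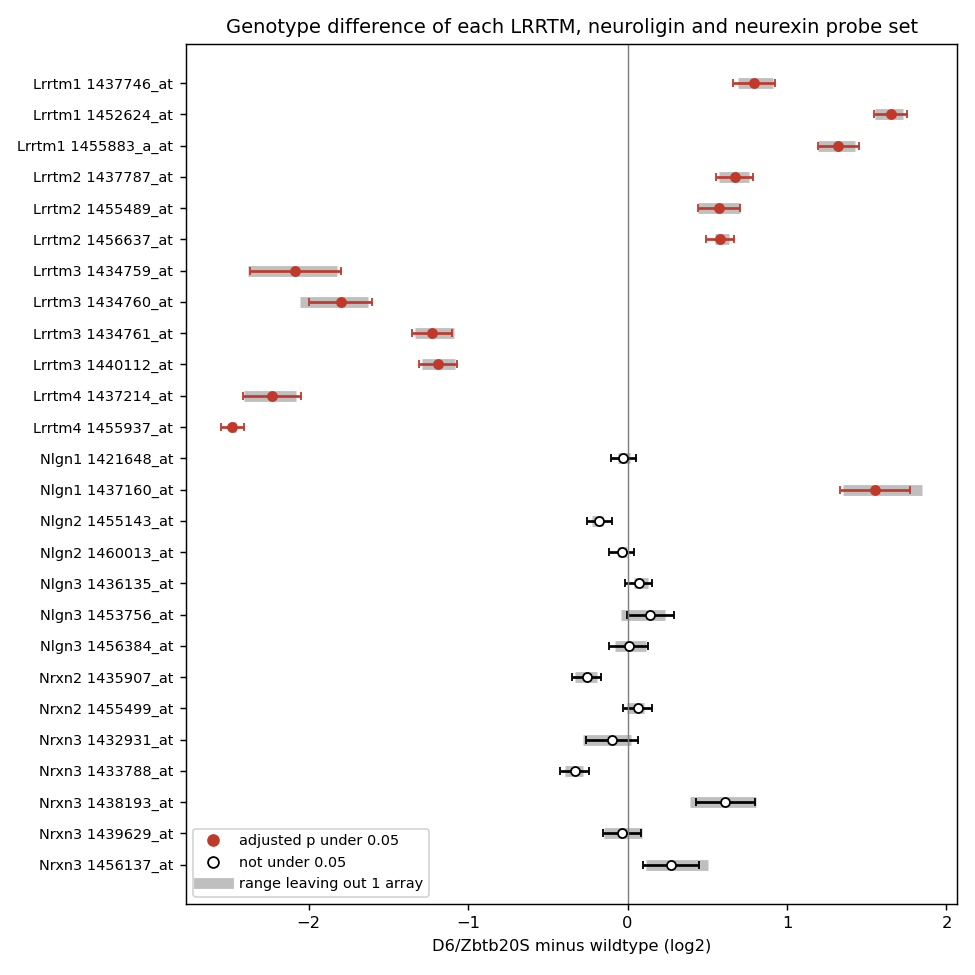
Difference between the genotypes (horizontal axis, D6/Zbtb20S minus wildtype, log2) for each of the 26 probe sets, with bars for SE, filled red points where the adjusted p is under 0.05 and grey bands for the range of differences when 1 array is left out. The LRRTM sets fall into a group above 0 (Lrrtm1 and Lrrtm2) and a group under 0 (Lrrtm3 and Lrrtm4). No band of a filled point reaches 0, which was fixed beforehand because the genotypes did not overlap on those sets.

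Partners of these proteins were taken from 6 lists with 67 measured genes, each gene represented by its brightest probe set and adjusted over all 18193 genes. The lists were chosen with earlier results of these data known, so the counts in them are a description and not a test. Of the 67, 5 were higher and 12 lower in D6/Zbtb20S tissue, with a median log2 difference of -0.08. Over all genes 7.71% passed, 4.06% higher and 3.64% lower, and the median difference was -0.02. With the mean of all probe sets of a gene in place of the brightest, 8 of the 67 were higher and 10 lower, and over all genes 8.23% passed, 4.85% higher and 3.39% lower. Where the summaries disagree for a gene, both are given.

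Other ligands of neurexins and of Lrrtm4 were lower in D6/Zbtb20S tissue for 7 of 15 genes and higher for 1, with a median of -0.40. With the mean of probe sets 6 were lower and 2 higher. Cbln4 and Cbln2 encode cerebellins, secreted proteins that link neurexins to postsynaptic receptors. Cbln4 averaged 2.91 ± 0.19 in D6/Zbtb20S tissue and 4.59 ± 0.21 in wildtype tissue (SD, n = 3 each), a difference of -1.67 ± 0.13 (3.19-fold lower, adjusted p = 5.1e-05). Cbln2 averaged 4.75 ± 0.10 in D6/Zbtb20S tissue and 5.71 ± 0.19 in wildtype tissue (-0.96 ± 0.11, 1.95-fold lower, adjusted p = 0.000524). Cbln1, named after its value was seen as the 1 gene that was higher, averaged 7.08 ± 0.16 in D6/Zbtb20S tissue and 6.68 ± 0.10 in wildtype tissue (0.40 ± 0.10, adjusted p = 0.0394), a call that held in 2 of 6 fits with 1 array left out. Igsf21, an adhesion protein that binds neurexins at inhibitory synapses, averaged 5.51 ± 0.053 in D6/Zbtb20S tissue and 7.05 ± 0.28 in wildtype tissue (-1.53 ± 0.13, 2.89-fold lower, adjusted p = 7.8e-05). Nxph3, a neurexophilin that is secreted and bound by the long form of neurexins, averaged 6.23 ± 0.023 in D6/Zbtb20S tissue and 7.49 ± 0.15 in wildtype tissue (-1.26 ± 0.092, 2.40-fold lower, adjusted p = 4e-05). Its relative Nxph1 differed by -0.55 ± 0.13 (adjusted p = 0.032), a call that held in 2 of 6 fits with 1 array left out. The calls of Cbln2, Cbln4, Igsf21 and Nxph3 held in all 6. Dag1, which encodes dystroglycan, a neurexin ligand, was named after its values were seen: its brightest probe set differed by 0.17 (adjusted p = 0.306), its other 3 sets were higher by 0.75 to 0.84 (adjusted p up to 0.00704 over all probe sets), and its mean of sets was higher by 0.64 (adjusted p = 0.000664). The sources used here do not say which of its sets reads the gene best, and 2 of the 3 have names ending in _x_at, which can also match other transcripts. Gpc4, a heparan sulfate proteoglycan counted as lower, missed the threshold with the mean of its sets (-0.27, adjusted p = 0.0508).

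Inside the presynaptic terminal, 2 of 8 listed neurexin binders were higher in D6/Zbtb20S tissue and 0 lower. Lin7a, a PDZ protein of the complex that ties neurexins to the presynaptic scaffold, averaged 7.98 ± 0.045 in D6/Zbtb20S tissue and 6.61 ± 0.19 in wildtype tissue (1.37 ± 0.10, 2.58-fold, adjusted p = 4.7e-05), and all 3 of its probe sets were higher. Apba2, an adaptor of the same complex family, differed by 0.53 ± 0.12 (adjusted p = 0.0259), a call kept in 3 of 6 fits with 1 array left out. On the postsynaptic side the scaffold proteins and neuroligin binders gave opposite counts by summary: by the brightest set 2 of 14 were lower and 0 higher, and by the mean of sets 0 were lower and 2 higher. By the brightest set the lower ones were Magi3 (-0.47 ± 0.10, adjusted p = 0.0232) and Dlg1 (-0.37 ± 0.082, adjusted p = 0.0232), both PDZ scaffolds. Their calls held in 1 and 2 of 6 fits with 1 array left out, and their other probe sets did not pass. With the mean of sets they missed the threshold (-0.22, adjusted p = 0.131 for Magi3, and -0.24, adjusted p = 0.16 for Dlg1). The higher ones by the mean of sets, named after their values were seen, were Dlgap1 (0.45, adjusted p = 0.0154) and Homer1 (0.28, adjusted p = 0.048), scaffold proteins of excitatory synapses. In each of these 1 of 6 probe sets passed on its own, by 1.14 for Dlgap1 (adjusted p = 0.000784) and 0.50 for Homer1 (adjusted p = 0.00964), and neither brightest set did. Magi1, a scaffold also named after its values were seen, had 2 of 5 probe sets that passed as lower. They differed by -0.53 (adjusted p = 0.0119) and -0.51 (adjusted p = 0.0204). Neither its brightest set (-0.34, adjusted p = 0.147) nor its mean of sets (-0.23, adjusted p = 0.0896) passed.

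A list of 22 other synaptic organizers and their partners held mostly leucine-rich repeat genes. It also held the receptor phosphatases Ptprd, Ptprf and Ptprs, and Ntng1, Ntng2, Il1rapl1 and Il1rap. Of the 22, 2 were higher and 2 lower, and 2 and 3 with the mean of probe sets. Lrrc4, a ligand of netrin-G2, averaged 6.47 ± 0.046 in D6/Zbtb20S tissue and 5.55 ± 0.085 in wildtype tissue (0.93 ± 0.080, 1.90-fold, adjusted p = 1e-04). Slitrk3, an organizer of inhibitory synapses, was higher by 0.64 ± 0.087 (adjusted p = 0.00164) with either genotype under the array median. Slitrk1 was lower by a log2 difference of -0.55 ± 0.091 (adjusted p = 0.00522). Ptprd, the phosphatase to which Slitrk3 binds, differed by -0.35 ± 0.081 on its brightest set (adjusted p = 0.0286), a call that held in 1 of 6 fits with 1 array left out. Of its 7 probe sets 3 passed as lower, the largest by -1.37 (adjusted p = 0.00147) and with D6/Zbtb20S tissue and wildtype tissue both under the array median, and the mean of sets was -0.47 (adjusted p = 0.00262). Of 5 genes that splice or shed neurexins and neuroligins 1 passed, Khdrbs3, an RNA-binding protein that acts on neurexin splicing, at 7.83 ± 0.12 in D6/Zbtb20S tissue and 8.45 ± 0.15 in wildtype tissue (-0.62 ± 0.10, adjusted p = 0.00485). The 3 alpha-catenin genes that enclose Lrrtm1, Lrrtm2 and Lrrtm3 did not pass. Ctnna3, around Lrrtm3, had the smallest p of them, with a difference of -0.19 (adjusted p = 0.446). It averaged 1.99 in D6/Zbtb20S tissue and 2.18 in wildtype tissue, both under the array median, where differences are compressed and a change could be missed.

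**Figure D4:**
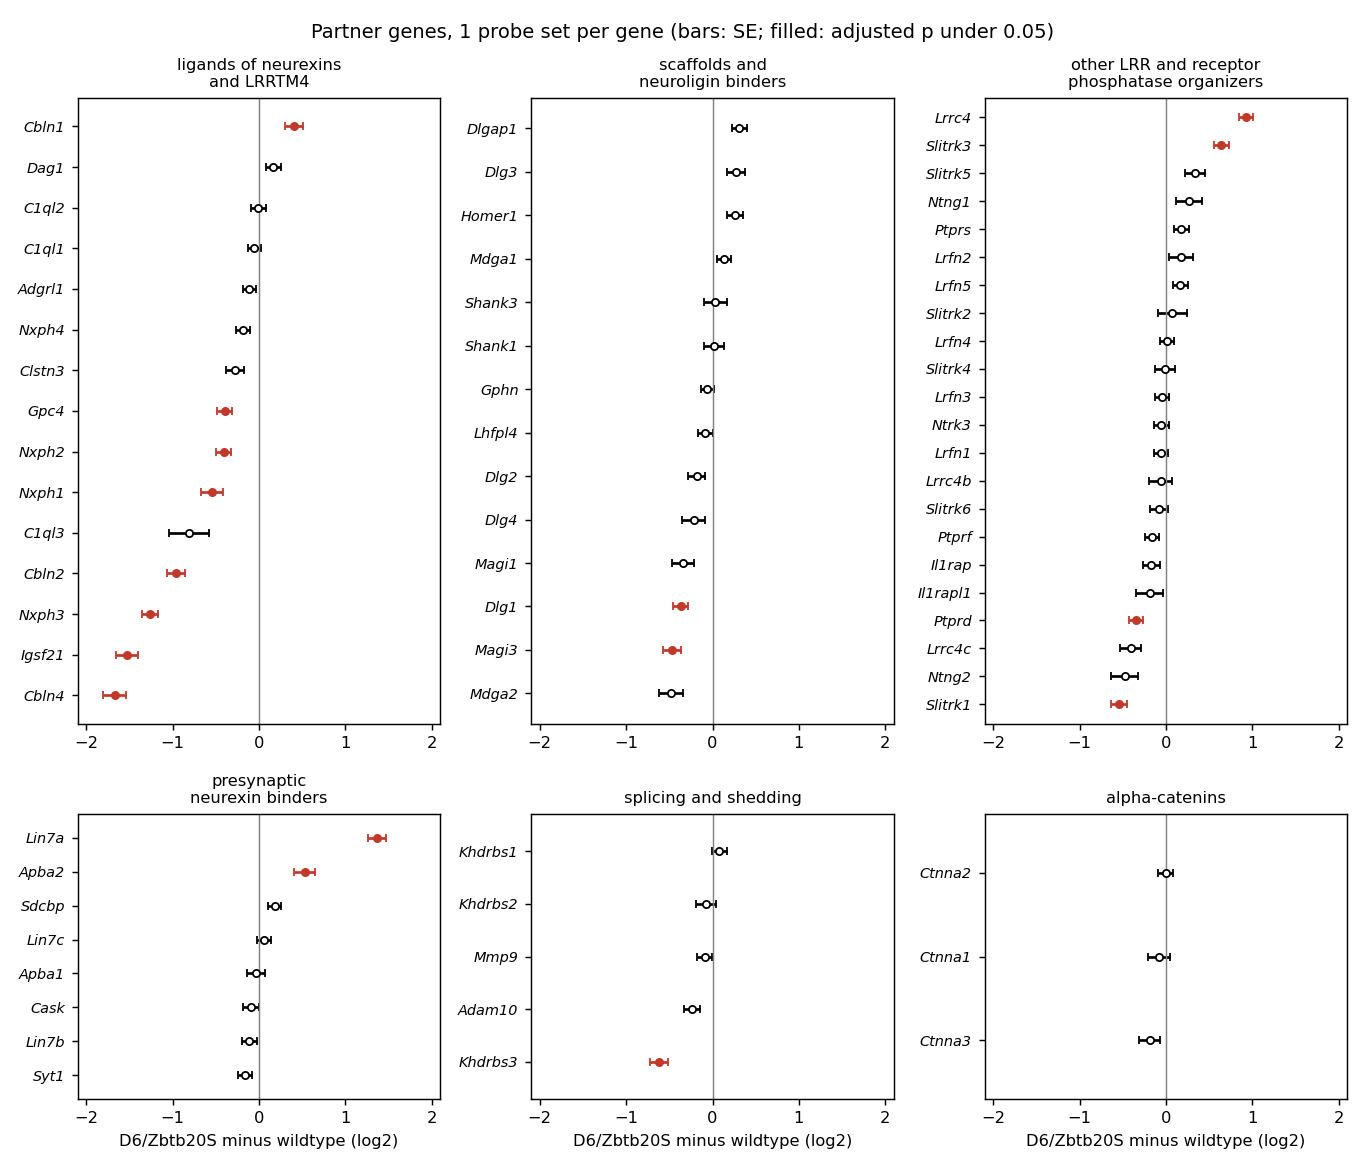
Difference between the genotypes (horizontal axis, D6/Zbtb20S minus wildtype, log2) for the 67 partner genes in 6 lists, 1 probe set per gene, with bars for SE and filled red points where the adjusted p over all genes is under 0.05. Filled points lie mostly under 0 among the ligands of neurexins (7 lower, 1 higher) and above 0 among the presynaptic binders (2 higher).

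Marker genes of some other cells moved with the genotype as well, read beside the 7.71% of all genes that passed. The marker lists too were chosen with earlier results of these data known. Of 9 microglial markers 3 were higher, Cx3cr1 (0.87), Tyrobp (0.69) and Ctss (0.49), with a summed linear signal of 722 to 835 in D6/Zbtb20S tissue against 557 to 591 in wildtype tissue. Of 8 markers of the oligodendrocyte lineage 4 were lower, among them Olig2 (-0.77), Olig1 (-0.68) and Cnp (-0.53), with sums of 713 to 793 in D6/Zbtb20S tissue against 991 to 1174 in wildtype tissue. Of 5 markers of excitatory neurons, the cells in which LRRTMs are best known, 2 were higher, Neurod2 (1.12) and Camk2a (0.65), and 1 lower, Slc17a6 (-1.26), and their sums were 1824 to 2121 in D6/Zbtb20S tissue and 1617 to 1823 in wildtype tissue. Of 8 markers of astrocytes and radial glia 1 was lower, Sox2 (-0.42), and their sums overlapped, at 5970 to 6093 in D6/Zbtb20S tissue and 5682 to 6198 in wildtype tissue. Of 6 endothelial markers 1 was lower, Slc2a1 (-0.36), with overlapping sums of 334 to 397 in D6/Zbtb20S tissue and 387 to 422 in wildtype tissue. The part of these shifts in the values of the 9 genes was not tested. With an ordinary linear model in place of the moderated one, 2 of the 13 calls remained, Lrrtm4 1455937_at (adjusted p = 0.00292) and Lrrtm1 1452624_at (adjusted p = 0.0407), and the other 11 had an adjusted p of 0.0757 to 0.252. Of the 17 partner genes 5 passed in that model, Cbln4, Igsf21, Nxph3, Lin7a and Lrrc4 (adjusted p between 0.0238 and 0.0488).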

How the data were processed

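The deposited table gives 1 log2 value per probe set and array; per the submitters' processing notes RMA and limma were used, with no version or order given in the sources used here. RMA includes a background correction and a median summary of probes, and it compresses differences at low signal. That the scale is log2 was read from the range of values, and any later centring of the arrays is unknown. Of 45101 rows, 64 control probe sets were left out. Names came from the platform annotation: 34945 probe sets had 1 symbol, 932 several and 9160 were not named in it. Named sets were matched by gene ID to the RefSeq gene table of GRCm38.p6 (34741 matched).

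Differences (D6/Zbtb20S minus wildtype) came from lmFit and eBayes without covariates (limma 3.58.1, R 4.3.3) over all 45037 probe sets, or over 18193 genes by the probe set of highest mean, with Benjamini-Hochberg adjustment. After a difference, ± is the SE of the fit, and after a mean it is the SD over 3 arrays. Summed marker signals add the antilogs of the brightest set of each gene. The steps were tested on simulated data with noise drawn independently for each probe set and array. Effects shared within an array or litter were not simulated. Promoter windows were read with Python 3.11.15 and figures drawn with matplotlib 3.10.9.

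The 9 genes and all gene lists were chosen with earlier results of these data known. All probe sets of the 9 genes are given; of each partner list up to 5 genes past the threshold with the largest difference were named, or the gene of smallest p where none passed, and of each marker list up to 3 genes past it. Alternatives were another scaling, array weights, a trend, an ordinary linear model, a filter on dim probe sets, other thresholds, averaging probe sets by gene, the replicate number as a block, and leaving out each array. Detection calls were not used here, and precision is limited by having 3 arrays per genotype.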

Additional observations from a re-analysis of the deposited data

How the results depend on the processing

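The 13 probe sets past the threshold kept the sign of their difference under every alternative run. On these 13 the genotypes did not overlap, so leaving out or weighting arrays could not change the sign. All 334 recomputed differences of the 26 probe sets moved by less than the spread between replicates. Those with the replicate block, the trend, the ordinary model or the dim filter equal the main difference by construction, so they could not move. The differences with 1 array left out could not move beyond this spread either. In groups this small, leaving out 1 array always shifts a group mean by less than the spread. Only the differences with equal array medians, quantile normalization or array weights could have moved further. Past the threshold were 13 of the 26 with equal array medians and with an intensity trend. The count was 14 after quantile normalization and at an adjusted p under 0.1, and 15 with array weights. It was 10 at an adjusted p under 0.01, and 12 of 22 tested after leaving out dim probe sets. It was 2 with an ordinary linear model, and between 10 and 15 when 1 array was left out. The Nrxn3 set 1433788_at passed after quantile normalization (-0.36, adjusted p = 0.0331). Over all probe sets, 2484 passed, against 4710 with array weights, 200 with the ordinary model, 1062 at an adjusted p under 0.01, and 1162 to 2881 with 1 array left out. Over all genes 1402 passed, against 2598, 267 and 693 under the same settings, and 777 to 1538 with 1 array left out. Partner genes numbered 17, against 5 with the ordinary model, 9 at an adjusted p under 0.01, and 9 to 19 with 1 array left out. Among the fits with 1 array left out, the lowest counts of all probe sets, all genes and partner genes came without wildtype replicate 2. The cause was not tested beyond the construction of each setting. Folds at low signal are limited by RMA's compression, and 9 of the 26 probe sets lay under the array median in D6/Zbtb20S tissue, against 4 in wildtype tissue.

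The titles number the arrays 1 to 3 in each genotype. Same-numbered arrays correlated in their deviations from the group means by -0.033, 0.178 and 0.211 for replicates 1, 2 and 3, and not every array correlated best with its own number, so the numbers were not taken to pair the arrays. With the replicate number as a block, 14 of the 26 probe sets passed, the added one being Nrxn3 1438193_at (adjusted p = 0.023), and 3304 of all probe sets, 1343 of all genes and 17 partner genes passed.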

Other observations

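In each family the gene with the smallest p, represented by its brightest probe set, was compared with all other named genes above the median signal by Pearson's r over the 6 arrays, which share the 2 genotypes, so that genes changed by genotype correlate. The genes most like Lrrtm4 (1437214_at) were Gabrg1 (r = 0.9998, log2 difference -1.01), a GABA receptor subunit, and Prkaa2 (r = 0.998, difference -0.62), a catalytic subunit of AMP-activated kinase. Those most like Nlgn1 (1437160_at) were Wipf3 (r = 0.997, difference 0.97) and Pmepa1 (r = 0.996, difference 0.62). Those most like Nrxn3 (1433788_at) were Bend3 (r = 0.996, difference -0.11) and Gm3715 (r = 0.991, difference -0.62).

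Lrrc4c, a ligand of netrin-G1 from the list of other synaptic organizers, was singled out after its values were seen. Its brightest probe set differed by -0.41 (limma adjusted p = 0.0827 over genes), and its other 2 sets differed by -1.20 (adjusted p = 0.00986) and -1.29 (adjusted p = 0.00162) over all probe sets. The mean of its sets was lower by a log2 difference of -0.97 (adjusted p = 0.000999).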
